A study of Homo sapiens with 4 samples.

Results

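The regions described here carried an accessible site in both rapamycin-treated cultures of Huh7 cells and in neither vehicle-treated culture, or the reverse. Huh7 is an established human liver cancer line. The assay was ATAC-seq: a transposase cuts and tags DNA where chromatin is open, and open stretches appear as peaks of reads. The 4 groups held 1 library each: shARID1A cells with 100 nM rapamycin for 6 h, shControl cells with 100 nM rapamycin for 6 h, shARID1A cells in DMSO, and shControl cells in DMSO. All carried a short hairpin RNA, either a control or one against ARID1A, which binds DNA within the BAF type of SWI/SNF chromatin remodelling complex, and each library was made from 50000 cells. Peaks of the 4 deposited lists were merged wherever they shared a base, which gave 69838 regions on hg38. Of these, 1087 held a peak in both rapamycin lists and none in either DMSO list (the rapamycin set), and 1383 held a peak in both DMSO lists and none in either rapamycin list (the DMSO set). These 2470 regions were selected on the presence of peaks in the lists, so their presence is a description and no finding.

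Rapamycin binds FKBP12 and inhibits mTORC1, the kinase complex that couples amino acids, growth factors and energy to protein, lipid and nucleotide synthesis and restrains autophagy. In liver cells mTORC1 is known for promoting lipid synthesis through the SREBP transcription factors and for holding the lysosomal regulator TFEB in the cytosol. Open chromatin marks promoters, enhancers and insulators, and distal sites usually differ more between cell states than promoters do. With 1 library per group no value has a replicate error, and no p-value was computed. Intervals are exact (Clopper-Pearson) binomial or order-statistic 95% intervals over regions. They cover counting error only, and neighbouring regions are not independent.

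The promoter sequences below are windows around a transcription start site (TSS) that members of each set overlap. Of those shown, the members at TMEM212 and AXL ended before the TSS. RefSeq promoter windows of 300 bases (250 before and 50 after the start, GRCh38.p14) overlapped 42 members of the rapamycin set, in 44 windows, and 49 members of the DMSO set, in 54 windows. Shown are the 3 windows of each set that had at least 50% of their bases in the best-ranked members and belonged to the nearest gene of the authors' annotation, and that of AXL, the one gene of the lists used here that the authors' annotation names as nearest gene of a member within 1 kb of its TSS. Capitals mark matches, on either strand, to 12 motifs searched: AP-1 TGACTCA, E-box CACGTG, CRE TGACGTCA, TEAD GGAATG, ETS CCGGAAGT, NF-Y CCAAT, GC box GGGCGG, forkhead TGTTTAC, HNF4 CAAAGTCC, NRF1 GCGCATGC, CEBP TTGCGCAA and ATF4 TGATGCAA. Sequences run 5′ to 3′ on the strand of the gene. The first 3 belong to the rapamycin set.
DEXI, chr16:10942419-10942718, minus strand: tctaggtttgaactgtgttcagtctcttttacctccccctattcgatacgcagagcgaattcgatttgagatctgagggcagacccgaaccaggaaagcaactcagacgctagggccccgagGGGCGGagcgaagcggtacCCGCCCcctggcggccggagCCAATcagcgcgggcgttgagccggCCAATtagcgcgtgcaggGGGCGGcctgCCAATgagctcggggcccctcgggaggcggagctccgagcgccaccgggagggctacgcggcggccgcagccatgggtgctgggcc
GIT1, chr17:29589599-29589898, minus strand: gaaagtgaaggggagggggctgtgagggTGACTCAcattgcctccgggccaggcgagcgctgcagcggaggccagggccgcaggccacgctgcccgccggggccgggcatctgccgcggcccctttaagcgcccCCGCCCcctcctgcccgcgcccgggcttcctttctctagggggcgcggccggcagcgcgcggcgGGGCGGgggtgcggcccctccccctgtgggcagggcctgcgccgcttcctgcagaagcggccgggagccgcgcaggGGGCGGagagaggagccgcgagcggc
LINC01806, chr2:161244489-161244788, plus strand: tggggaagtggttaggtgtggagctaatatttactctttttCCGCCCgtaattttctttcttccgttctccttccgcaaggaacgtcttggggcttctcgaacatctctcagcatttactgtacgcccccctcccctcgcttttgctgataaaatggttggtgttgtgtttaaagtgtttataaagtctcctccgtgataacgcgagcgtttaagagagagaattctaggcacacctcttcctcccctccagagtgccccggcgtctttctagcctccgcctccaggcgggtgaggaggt
The next 4 belong to the DMSO set.
MC5R, chr18:13823899-13824198, plus strand: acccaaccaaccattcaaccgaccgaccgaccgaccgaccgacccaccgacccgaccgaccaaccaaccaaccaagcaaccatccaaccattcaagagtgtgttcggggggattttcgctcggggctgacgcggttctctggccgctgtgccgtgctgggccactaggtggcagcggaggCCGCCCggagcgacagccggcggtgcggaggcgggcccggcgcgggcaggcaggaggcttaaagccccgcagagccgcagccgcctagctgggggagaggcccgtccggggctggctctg
TMEM212, chr3:171843099-171843398, plus strand: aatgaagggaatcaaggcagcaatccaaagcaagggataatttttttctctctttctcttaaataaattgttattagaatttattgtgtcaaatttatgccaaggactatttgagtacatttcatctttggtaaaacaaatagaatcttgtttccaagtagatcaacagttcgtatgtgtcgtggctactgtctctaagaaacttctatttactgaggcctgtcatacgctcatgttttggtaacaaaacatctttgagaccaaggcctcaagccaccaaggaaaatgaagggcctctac
TSHR, chr14:80955371-80955670, plus strand: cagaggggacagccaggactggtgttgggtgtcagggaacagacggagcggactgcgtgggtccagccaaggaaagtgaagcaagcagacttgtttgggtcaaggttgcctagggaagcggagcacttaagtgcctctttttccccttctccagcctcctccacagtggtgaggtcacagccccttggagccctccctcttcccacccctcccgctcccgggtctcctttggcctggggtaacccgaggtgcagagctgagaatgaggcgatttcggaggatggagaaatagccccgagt
AXL, chr19:41226505-41226804, plus strand: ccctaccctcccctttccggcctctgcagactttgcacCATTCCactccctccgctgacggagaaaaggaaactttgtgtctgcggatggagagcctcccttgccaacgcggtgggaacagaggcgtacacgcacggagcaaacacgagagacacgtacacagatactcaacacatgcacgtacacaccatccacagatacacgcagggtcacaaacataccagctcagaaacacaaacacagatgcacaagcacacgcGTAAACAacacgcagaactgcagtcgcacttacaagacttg
DEXI, a small protein-coding gene beside CLEC16A, held 3 NF-Y and 3 GC box matches in a CpG-rich window, whereas the windows of TMEM212 and TSHR, the thyrotropin receptor gene, held none of the 12 motifs. GIT1, which encodes a GTPase-activating protein for ARF proteins, held 1 AP-1 match and 3 GC boxes. AXL, a receptor tyrosine kinase gene known as a YAP target, held 1 TEAD and 1 forkhead match. The member covered the first 215 bases of the AXL window, so the forkhead match, at base 260, lay outside it. LINC01806, a long non-coding RNA gene, and MC5R, a melanocortin receptor gene, held 1 GC box each. A match describes letters in a window and is no evidence of binding.

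Over all windows the composition of the sets was alike. The median GC content was 59.2% (95% interval 55.3 to 64.7) in 44 windows of the rapamycin set and 61.7% (56.3 to 65.0) in 54 windows of the DMSO set, with 66.0% in windows under regions of all 4 lists and 58.7% in all 34943 windows of the table. GC boxes were present in 22 of 44 rapamycin-set windows and 29 of 54 DMSO-set windows (53.7%), against 71.1% under regions of all 4 lists and 44.9% of all windows. NF-Y matches were present in 27.3% and 31.5% of rapamycin-set and DMSO-set windows and in 34.6% of all windows. AP-1 matches were present in 3 rapamycin-set windows (6.82%) and 3 DMSO-set windows (5.56%), with 4.96% of all windows. TEAD matches were present in 2 rapamycin-set windows (4.55%, 95% interval 0.555 to 15.5) and 7 DMSO-set windows (13.0%, 5.37 to 24.9), with 14.04% of all windows. The E-box was present in 9.09% of rapamycin-set and 9.26% of DMSO-set windows, with 7.23% of all windows. ETS, forkhead, HNF4, NRF1 and ATF4 matches were present in 2 or fewer windows of either set, against 4.11%, 3.42%, 1.20%, 3.02% and 0.870% of all windows. CRE and CEBP matches were present in none, against 1.84% and 0.152% of all windows.

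Lists of hepatocyte and other markers were read first as a check of the label. Of 14 hepatocyte markers, 7 to 9 had a promoter peak in each list, and of 4 biliary markers 3 had one in every list. None of 5 endothelial markers had one in any list, and 1 or 2 of 6 leukocyte, 2 or 3 of 6 stellate cell and fibroblast, and 2 of 4 neuron markers did. The lists held 44760 peaks for shARID1A rapamycin, 49783 for shControl rapamycin, 45700 for shARID1A DMSO and 52192 for shControl DMSO, and their read depth is unknown. Accessibility does not measure the knockdown itself. Peak numbers follow genome order, and the list of shARID1A DMSO skips 6666 of its numbers (12.7%), that of shControl rapamycin 1093 (2.15%), and the other lists none. Whether a region that lies where a list skips a number had a peak in that library cannot be told, so some results are also given without such regions.

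The number of regions that followed rapamycin in both kinds of cells was close to the number that went opposite ways. The rapamycin set and the DMSO set together held 2470 regions. The crossed pairs, with a peak under rapamycin in one kind of cell and in DMSO in the other, together held 2386, of which 1209 were shared by shControl rapamycin and shARID1A DMSO and 1177 by shControl DMSO and shARID1A rapamycin. The plain ratio of same-way to opposite-way regions was 1.035. The odds ratio used here is another measure, the product of the 2 same-way counts over the product of the 2 crossed counts. It was 1.06 (95% interval 0.944 to 1.18). For knockdown under each treatment, 4913 regions followed the genotype, 1265 in both shARID1A lists and 3648 in both shControl lists. Against the same 2386 crossed regions, the plain ratio was 2.06 and the odds ratio 3.24 (2.93 to 3.59). In regions outside intervals with skipped numbers, 1907 followed rapamycin and 1857 were crossed, an odds ratio of 1.02 (0.891 to 1.17). Of the 3648 regions of both shControl lists, 1677 (46.0%) lay in intervals with skipped numbers, which left 1971. Of the 1265 regions of both shARID1A lists, 63 (4.98%) did, which left 1202. With the same number of top-scored peaks from each list, these 2 pairs held 2389 and 1770 regions. When only the stronger 50% of each list was used, a weaker peak counted as absent, so these were mostly regions outside the 2 sets. By that rule 797 regions went the same way and 670 were crossed, an odds ratio of 1.38 (1.12 to 1.69). All these ratios are built from the presence patterns that chose the members, so they describe the lists. Their intervals count regions as units. With 1 library per group they cannot test an effect of rapamycin or of knockdown, and differences between single libraries cannot be told apart from either.

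**Figure D1:**
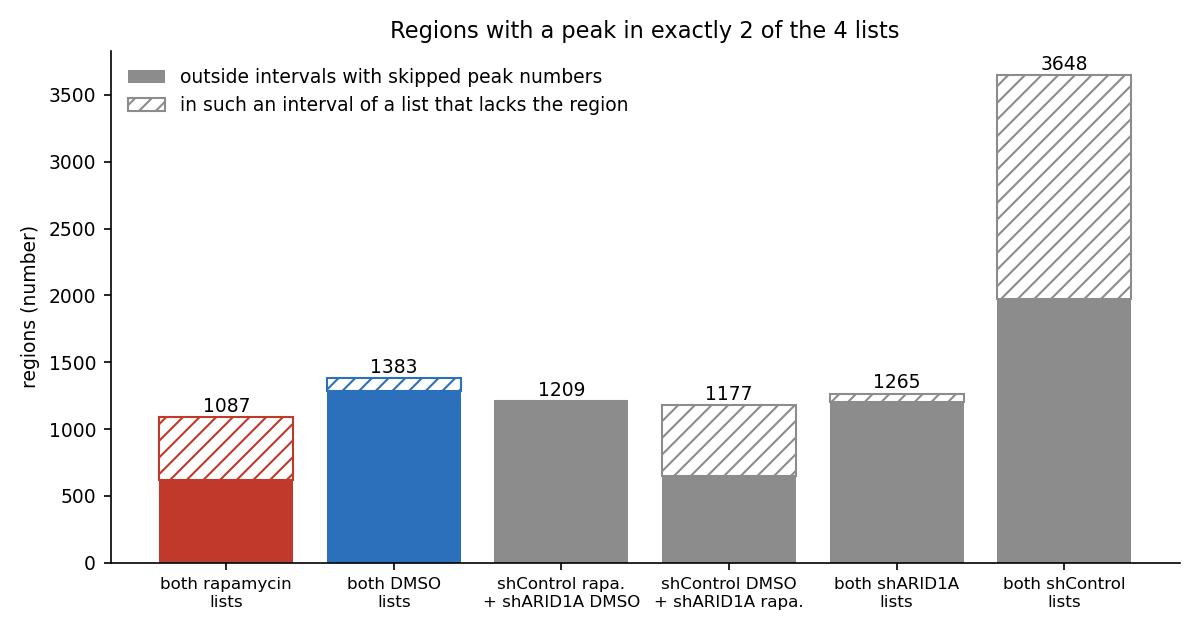
Number of regions (vertical axis) with a peak in exactly 2 of the 4 lists, for each pair of lists. Hatched parts lie where a list that lacks the region skips a peak number. The bars of both rapamycin lists (1087) and both DMSO lists (1383) stand near those of the crossed pairs (1209 and 1177). The bar of both shControl lists (3648) is the highest, with 1677 of its regions hatched.

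In shControl cells, 13% of all merged regions had a peak with rapamycin and none in DMSO, and 16% had the reverse. In shARID1A cells the same shares were 12.1% and 13.6%. These shares are given as a background only, since the same contrasts chose the members. Of the 9065 regions with a peak in shControl cells under rapamycin alone, 1087 (11.99%) had a peak under rapamycin alone in shARID1A cells, 1209 (13.3%) had one in DMSO alone, and 5363 (59.2%) had none in either shARID1A list. Of the 11205 regions with a peak in shControl cells in DMSO alone, 1383 (12.3%) had one in DMSO alone in shARID1A cells, 1177 (10.5%) had one with rapamycin alone, and 7158 (63.9%) had none.

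Skipped numbers touched the sets unequally. In the rapamycin set, 466 of 1087 regions (42.9%, 95% interval 39.9 to 45.9) lay where the shARID1A DMSO list skips a number, which left 621. In the DMSO set, 97 of 1383 regions (7.01%, 5.72 to 8.49) lay where the shControl rapamycin list skips one, which left 1286. Of all regions absent from the shARID1A DMSO list, 38.4% lay in such intervals, and of all absent from the shControl rapamycin list, 6.40% did.

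Members of both sets were weak and narrow peaks. Each list was ranked on the authors' score, from 0% for the strongest to 100% for the weakest, and the mean of the ranks of a member over its lists had a median of 80.6% (79.5 to 81.7) in the rapamycin set and 79.3% (78.4 to 80.2) in the DMSO set. The other regions of exactly 2 lists had a median of 77.2%, and regions of all 4 lists 35.1%. Only 22 members of the rapamycin set (2.02%) and 57 of the DMSO set (4.12%) had a mean rank in the stronger 50%. No rapamycin-set member stood in the strongest 25% of either list, whereas 4 members of the DMSO set did so in shControl DMSO and 1 in shARID1A DMSO. The median width was 482 bp (470.5 to 492.5) in the rapamycin set and 474 bp (463.5 to 481.5) in the DMSO set, against 492.5 bp in the other regions of exactly 2 lists and 875.8 bp in regions of all 4. Width and rank belong to the peaks that chose the members, so they are descriptions.

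**Figure D2:**
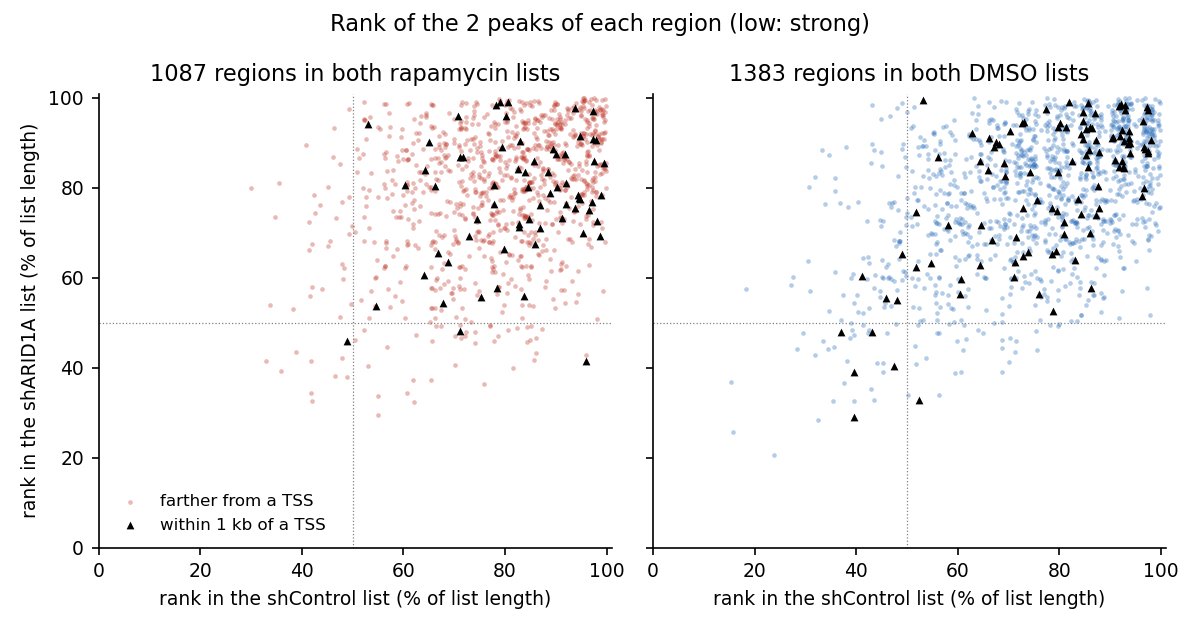
Rank of each member in the shControl list (horizontal axis) and the shARID1A list (vertical axis), as a percentage of the list's length with 0 for the strongest peak, for the rapamycin set on the left and the DMSO set on the right. Points crowd in the weak corner, and the best mean rank was 37.3% in the rapamycin set and 20.8% in the DMSO set. Black triangles are members within 1 kb of a TSS.

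The 2 peaks of a member usually covered the same bases. The median overlap was 94.1% of the shorter peak in the rapamycin set and 96.4% in the DMSO set, and 131 members (12.1%) and 133 members (9.62%) of these sets overlapped by under 50%. Few absences hung on a narrowly missed overlap with a listed peak, which says nothing of how near the calling threshold an unlisted peak may have been. Gaps were measured to listed peaks only. For the 466 rapamycin-set and 97 DMSO-set members where a list skips a number, an unlisted peak may have been nearer. The nearest peak of a list that lacked the region was a median of 11551 bp away in the rapamycin set and 8126 bp in the DMSO set, and it was within 100 bp for 10 and 14 members. Just inside the rule stood rapamycin-set members in an intron of UMAD1, in intron 1 of TRIOBP and in the last exon of DAGLB, with gaps of 2, 7 and 17 bp, and DMSO-set members in intron 1 of C11orf49, intron 1 of MBNL3 and near LRRC55, with gaps of 9, 11 and 14 bp. Just outside it, a region near UNQ6494 was kept from the rapamycin set by an overlap of 6 bp, one in intron 4 of ST6GAL1 from both sets by 8 bp, and one at GALNT10 from the rapamycin set by 9 bp. Regions in introns of XXYLT1 and AC018953.1 were kept from the DMSO set by 8 and 5 bp. Overlaps under 50 bp kept 11 regions from the rapamycin set and 12 from the DMSO set.

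Both sets lay mostly in introns and between genes. Introns held 48.4% of the rapamycin set and 48.9% of the DMSO set, and intergenic sequence held 39.7% (36.8 to 42.7) and 35.8% (33.3 to 38.4) of these sets. Without members where a list skips numbers, the order turned. Intergenic sequence then held 34.3% (30.6 to 38.2) of the rapamycin set and 35.85% (33.2 to 38.5) of the DMSO set. First introns took 34.8% of intronic members of the rapamycin set and 34.0% of those of the DMSO set. Members within 1 kb of a TSS numbered 66 (6.07%, 4.73 to 7.66) in the rapamycin set and 107 (7.74%, 6.38 to 9.27) in the DMSO set. The other regions of exactly 2 lists had 6.69%, or 6.98% when weighted to the ranks of the rapamycin set and 6.88% when weighted to those of the DMSO set, and regions of all 4 lists had 36.7%. Gene ends held 3.04% of the rapamycin set and 4.84% of the DMSO set, and exons held 4.05% and 4.27%.

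**Figure D3:**
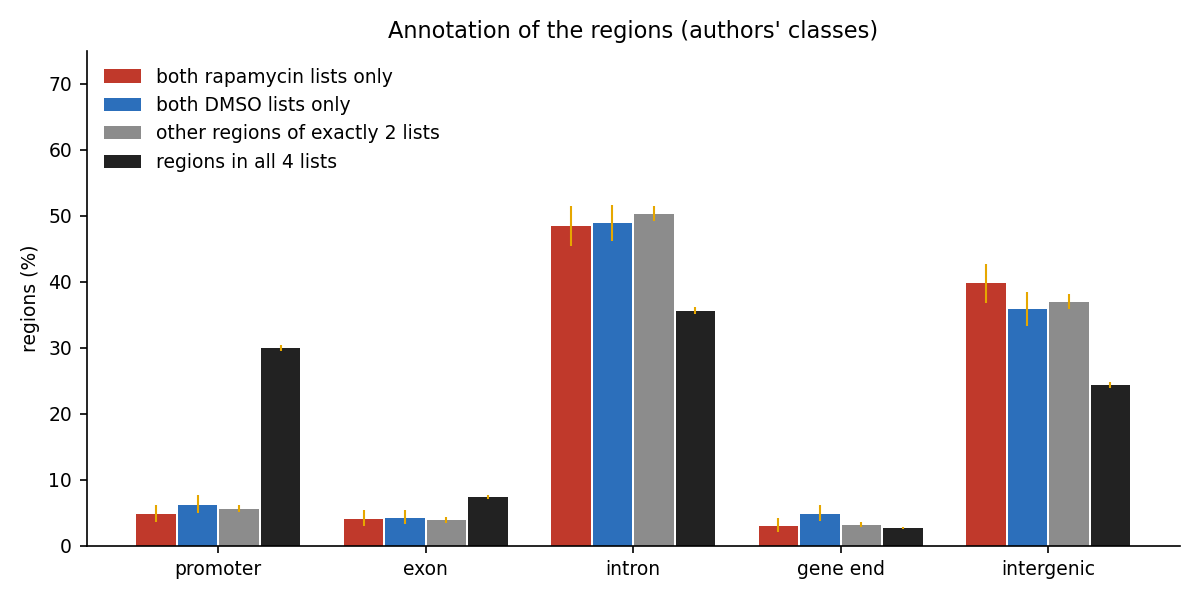
Share of regions (vertical axis, %) in each class of the authors' annotation, for the rapamycin set, the DMSO set, the other regions of exactly 2 lists and regions of all 4 lists, with exact 95% intervals. In the class promoter, the rapamycin set had 4.78% and the DMSO set 6.22%, and introns and intergenic sequence hold most members of both.

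Members of the rapamycin set lay farther from genes than those of the DMSO set. The median distance to the nearest TSS was 18924 bp (16856 to 20826) in the rapamycin set and 13934 bp (12810 to 15542) in the DMSO set. The same split ran through the other pairs of lists by whether shARID1A DMSO was one of them. The medians of the pairs that held it were 13417 bp with shControl rapamycin and 13900 bp with shARID1A rapamycin, and those of the pairs that lacked it were 18611 bp for shControl DMSO with shARID1A rapamycin and 20902 bp for both shControl lists. Without members where a list skips numbers, the median was 15048 bp (12737 to 16735) in the rapamycin set and 13370.5 bp in the DMSO set, and these intervals overlap. Members within 10 kb of a region of all 4 lists made up 24.6% (22.0 to 27.2) of the rapamycin set and 35.8% (33.3 to 38.4) of the DMSO set, and this share was 35.3% and 33.0% in the other pairs with shARID1A DMSO and 23.2% and 25.3% in those without it.

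**Figure D4:**
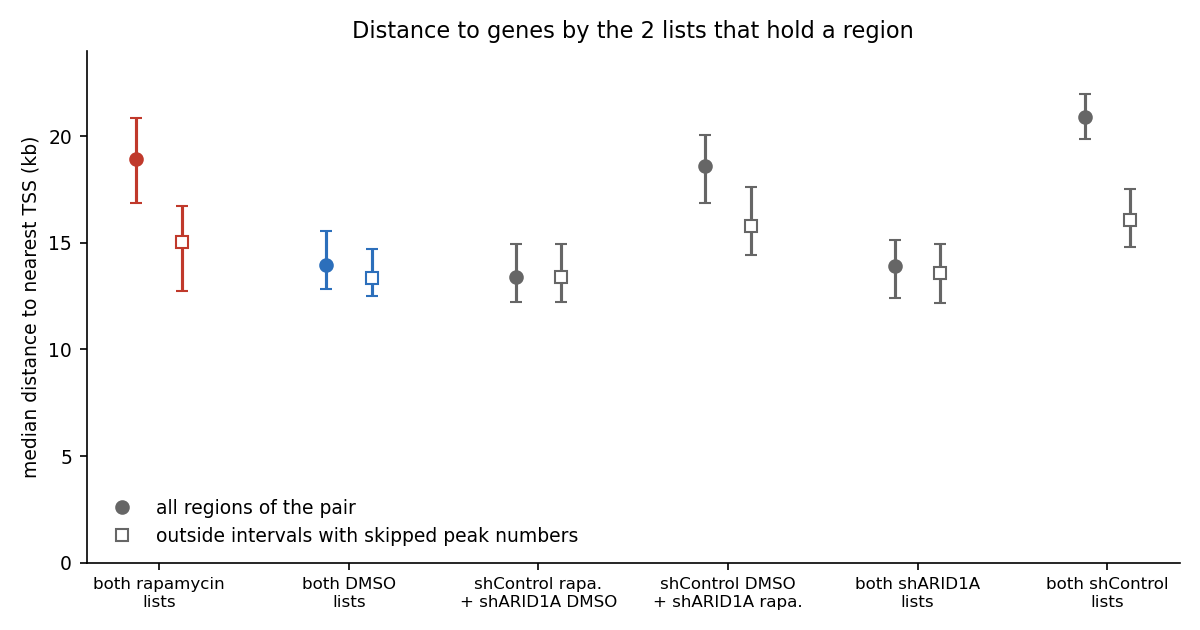
Median distance to the nearest TSS (vertical axis, kb) of the regions of each pair of lists, with 95% intervals, for all regions (filled circles) and for those outside intervals with skipped numbers (open squares). Outside such intervals the rapamycin set stands at 15048 bp and the DMSO set at 13370.5 bp.

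The best-ranked members of the rapamycin set were few and scattered. An intergenic site 5103 bp from AC010182.1 on chromosome 12 (chr12:106174776-106175319) ranked 33.0% down the shControl list and 41.6% down the shARID1A list. A site 4532 bp upstream of PDPR, the regulatory subunit of pyruvate dehydrogenase phosphatase (chr16:70109685-70110224), ranked 42.0% in shControl and 32.6% in shARID1A, and lay where shARID1A DMSO skips a number. A site in intron 26 of FLT4, the VEGF receptor of lymphatic endothelium (chr5:180611221-180611915), ranked 41.8% and 34.4% in these lists. SHH, the hedgehog ligand gene, had a site 3322 bp upstream of its TSS (chr7:155815372-155815818) at 33.7% in shControl and 53.9% in shARID1A. The other 6 of the best 10 lay near AL512357.1, LINC02319 and AC140113.4 and in introns of BEST3, CMTM3 and SIRPA, and of the 10, 4 lay where shARID1A DMSO skips a number.

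The best-ranked members of the DMSO set stood higher in their lists. A site in intron 3 of LINC02006 (chr3:153848563-153849009) ranked 15.9% down the shControl list and 25.7% down the shARID1A list. A site in intron 2 of ILK, the integrin-linked kinase gene (chr11:6606852-6607195), ranked 23.9% and 20.7% in these lists. A site 3616 bp from MIR3193 (chr20:31610630-31610964) ranked 15.4% and 36.8%. KLF3, a zinc-finger repressor gene, had a site in intron 1 (chr4:38666939-38667429) at 31.9% and 42.8%, and SEMA3A, which encodes a secreted semaphorin, had one in intron 6 at 28.3% and 44.2%. The others lay in introns of LINC01663 and MYO9A, at the promoter of MFSD14C and near LINC01515 and LINC00682. None of the 10 lay where a list skips a number.

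At promoters the best-ranked rapamycin-set members were those of DEXI (ranks of 48.9% in shControl and 46.1% in shARID1A) and EDAR, the ectodysplasin receptor gene (54.6% and 53.7%, where shARID1A DMSO skips a number). They were followed by LINC02420, GRAMD1C, a gene of a family of sterol transfer proteins, and INHBE, which encodes the liver-expressed activin E subunit (64.0% and 60.6%). Others among the best were STK25P1 and, where shARID1A DMSO skips a number, AC244154.1, RNU6-209P and MIR6819. In the DMSO set the best were MFSD14C (39.5% and 29.2%), CLVS1, which encodes a clathrin vesicle-associated lipid-binding protein (39.6% and 39.2%), and LINC01660 (37.1% and 48.0%). They were followed by AC048382.3, AC087645.3, AP000842.3, LGALS12, a galectin gene, RNU6-821P, AC063949.2 and LINC02574.

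The widest rapamycin-set members lay near RN7SKP36 (mean width 1270 bp), upstream of HECW1 (1244 bp) and near RPL12P42 (1073 bp). The RN7SKP36 and HECW1 members lay where shARID1A DMSO skips a number. The widest DMSO-set members lay in introns of TNIP1, a gene of an NF-kB inhibitor (1222 bp), PLCE1 (1171 bp) and LINC01619 (1166 bp). All 6 were weak, with mean ranks of 69.7% or more. The sets seldom gathered at single genes. The 1087 rapamycin-set members had 1055 nearest genes and the 1383 DMSO-set members 1332. Of these genes 68 were shared, or 6.45% of the rapamycin-set genes and 5.11% of the DMSO-set genes. Neither the number of nearest genes nor the sharing was computed for other pairs of lists or all merged regions. Neither can therefore be read as high or low. NCK2, an adaptor protein gene, was nearest to 3 members of the rapamycin set, all intergenic, 100412 to 168356 bp upstream of its TSS and where shARID1A DMSO skips numbers. GPRIN3, NFE2L3, ELOBP4 within PARD3, KSR1P1 and RNU6-745P were each nearest to 3 members of the DMSO set. The members at GPRIN3 lay in its intron 1, in its exon 2 and 63153 bp upstream. On 3 of 24 chromosomes the interval of the rapamycin set left out the share of all merged regions, and on none did that of the DMSO set. Among 24 intervals some may miss by counting error alone, and neighbouring regions are not independent. Chromosome shares were not computed without members where a list skips numbers. On chromosome 8 lay 2.76% (1.87 to 3.92) of the rapamycin set and 3.40% (2.51 to 4.49) of the DMSO set, with 4.04% of all merged regions. On chromosome 14 lay 4.05% (2.96 to 5.40) of the rapamycin set and 2.17% (1.47 to 3.08) of the DMSO set, with 2.96% of all merged regions, and on chromosome 15 2.02% (1.27 to 3.05) and 3.40% (2.51 to 4.49), with 3.25% of all.

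Members were counted near the genes of 17 lists, 393 different genes of mTORC1 signalling, its outputs, liver and other cell types. Within 50 kb of any of them lay 33 members of the rapamycin set (3.04%, 2.10 to 4.24) and 69 of the DMSO set (4.99%, 3.90 to 6.27). The other regions of exactly 2 lists had 3.25% and all merged regions 4.46%. The pairs of lists with shARID1A DMSO other than the DMSO set had 3.87% and 3.97%, and the pairs without it other than the rapamycin set had 2.46% and 3.04%. Outside intervals with skipped numbers the shares were 3.86% (2.49 to 5.70) in the rapamycin set and 5.13% (3.99 to 6.48) in the DMSO set. All merged regions outside such intervals had 4.91%, which lies within both intervals.

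Near mTORC1 and its regulators lay 7 members of the rapamycin set (0.644%, 0.259 to 1.32) and 7 of the DMSO set (0.506%, 0.204 to 1.04), with 0.467% of all merged regions, which lies within both intervals. RHEB, the GTPase that activates mTORC1, had a rapamycin-set site in intron 1 at ranks of 57.9% in shControl and 64.9% in shARID1A. DEPTOR, an mTOR inhibitor protein gene, held 1 site of each set in its intron 1, the rapamycin-set site at 57.3% and 91.5% and the DMSO-set site at 80.3% and 97.4%. Other rapamycin-set members lay 2334 bp from RRAGC, which encodes a Rag GTPase of the amino acid branch, and within 50 kb of WDR24, MIOS, SEH1L and NPRL3, of the GATOR complexes upstream of the Rag GTPases. DMSO-set members lay in introns of SESN1, an amino acid-sensing sestrin gene (45.1% and 60.3%), DEPDC5 of GATOR1, FNIP2, a folliculin partner gene, and MAPKAP1, an mTORC2 subunit gene, inside PRR5 and 23671 bp from SESN3.

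Among effectors and insulin signalling genes, 3 members of the rapamycin set (0.276%) and 6 of the DMSO set (0.434%) lay within 50 kb, with 0.411% of all merged regions. The rapamycin-set members lay in introns of GRB10, an insulin receptor adaptor gene, and INSR, the insulin receptor gene, the INSR site where shARID1A DMSO skips a number, and 15904 bp from EIF4EBP1, which encodes a translation repressor that mTORC1 phosphorylates. The DMSO-set members lay in FOXO1, a transcription factor gene that AKT signalling restrains, with 2 sites in intron 1 at 57.8% and 70.9% and at 62.8% and 96.7%, in introns of IRS1, AKT2 and PIK3CA, and 624 bp from RPS6.

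The DMSO set had the higher share in 10 of the 17 lists and the rapamycin set in 6, and lipid, lysosome and hepatocyte genes were among the 10. Near genes of SREBP, cholesterol and fatty acid synthesis lay 1 member of the rapamycin set (0.0920%, 0.00233 to 0.512) and 7 of the DMSO set (0.506%, 0.204 to 1.04), with 0.301% of all merged regions. Among the DMSO-set sites, 1 lay in intron 1 of SREBF2, the cholesterol-regulating SREBP gene (92.6% and 94.9%), and others lay within 50 kb of DHCR7, STARD4, INSIG1 and MBTPS2. The rapamycin-set site lay 45339 bp from SCD, a fatty acid desaturase gene. Near lysosome and autophagy genes lay 1 member of the rapamycin set (0.0920%, 0.00233 to 0.512) and 9 of the DMSO set (0.651%, 0.298 to 1.23), with 0.375% of all regions. MCOLN1, a lysosomal calcium channel gene, had 3 of the DMSO-set sites within 50 kb, 15970 to 34383 bp outside it. Their nearest genes were PEX11G, AC008878.1 and CAMSAP3. ATP6V1A, a subunit of the lysosomal proton pump, had 2, one in its intron 1 at 55.1% and 92.3% and one 31301 bp outside it. The others lay 21668 to 32124 bp outside HEXA, GABARAPL1, WIPI1 and UVRAG, the WIPI1 site in an intron of ARSG and the UVRAG site in one of DGAT2. The rapamycin-set site lay 42759 bp from BECN1, where shARID1A DMSO skips a number. The intervals of the sets overlap in both lists, and the part of the distance to genes, in which the sets differ, was not tested.

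Near hepatocyte genes lay 2 members of the rapamycin set (0.184%) and 9 of the DMSO set (0.651%), with 0.422% of all regions. The DMSO-set sites were 2 in introns of CPS1, the first enzyme of the urea cycle (47.4% and 59.3%, and 76.3% and 92.9%), 1 at 1840 bp from APOB, 1 at the annotated promoter of PPARA and 1 at that of NR1I2, nuclear receptor genes of lipid and drug metabolism, 2 beside ALB and AFP, one of them where shControl rapamycin skips a number, and 1 each near NR1H4 and AHSG. Both rapamycin-set sites lay near G6PC1, which encodes glucose-6-phosphatase, where shARID1A DMSO skips numbers. Near ribosomal protein genes lay 3 members of the rapamycin set (0.276%) and 8 of the DMSO set (0.579%), with 0.319% of all regions. Near SWI/SNF subunits lay 1 of the rapamycin set (0.0920%) and 5 of the DMSO set (0.362%), with 0.358% of all regions, the 5 in introns of ARID1B and ARID2 (the ARID2 site where shControl rapamycin skips a number), at SMARCA2, and within 50 kb of SMARCA4 and BICRA. YAP/TEAD targets had 2 members of the rapamycin set (0.184%), near AMOTL2 and, where shARID1A DMSO skips a number, FOXF2. They had 5 of the DMSO set (0.362%, with 0.345% of all regions), in introns of NT5E, MYOF, LATS2 and TGFB2 and at the promoter of AXL (85.6% in shControl and 98.9% in shARID1A).

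The other lists held 3 or fewer members of either set. Cell-cycle genes had 3 in the rapamycin set, near CCND1, CDC25B and, where shARID1A DMSO skips a number, PLK1, and 2 in the DMSO set, near the inhibitor genes CDKN1A and CDKN1B. Members of the rapamycin set and of the DMSO set numbered 3 and 2 near liver progenitor and biliary genes, and 2 and 1 near AP-1 and immediate early genes. They numbered 1 and 2 near HIF and glycolysis genes, and 1 and 3 near ATF4 targets and serine synthesis genes. Here 1 member is 0.0920% of the rapamycin set or 0.0723% of the DMSO set. Of all merged regions, 0.304% lay near the cell-cycle list and 0.1475% near the progenitor and biliary list. The AP-1, HIF and ATF4 lists had 0.308%, 0.253% and 0.203% of all merged regions. HIF1A, the hypoxia factor gene, had 1 site of each set, 7988 bp from the gene in the rapamycin set and 26652 bp in the DMSO set. Near markers of other cell types the same counts were 2 and 2 for neurons, 1 and 1 for endothelium and 1 and 2 for stellate cells and fibroblasts. The shares of all merged regions were 0.122%, 0.083% and 0.0587% in that order. Leukocyte markers had none of either set, with 0.0673% of all merged regions. At 3 counts of the total, this allows a share of up to 0.276% in the rapamycin set and 0.217% in the DMSO set. The exact upper limits were 0.339% and 0.266%. The share of all merged regions lies below these limits, so the count of 0 shows no difference from it.

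**Figure D5:**
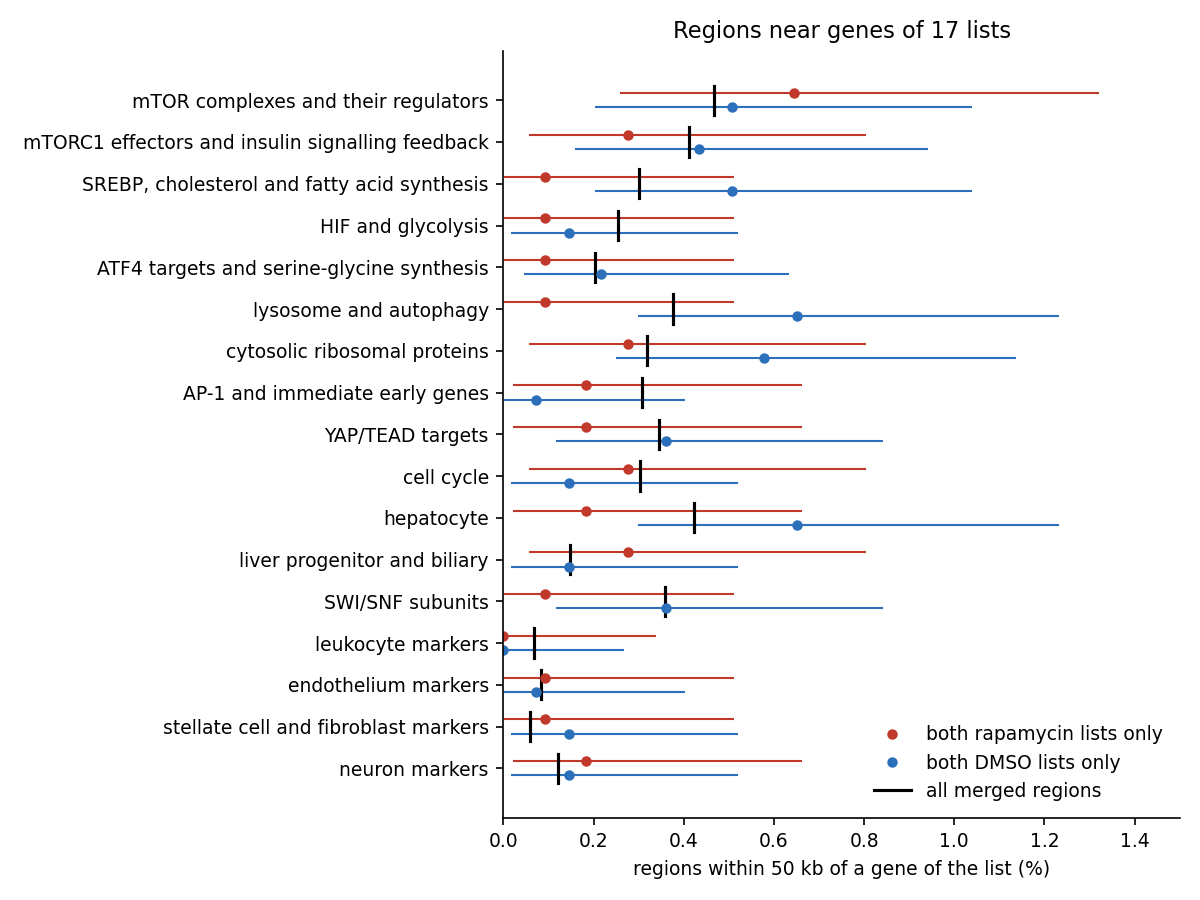
Share of regions (horizontal axis, %) within 50 kb of a gene of each list, for the rapamycin set (red) and the DMSO set (blue) with exact 95% intervals, and for all merged regions (black bars). The rapamycin set has 0.644% and the DMSO set 0.506% near mTOR complexes and regulators, and the DMSO set stands higher near lysosome, SREBP and hepatocyte genes, where the intervals of the sets overlap.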

How the data were processed

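ATAC-seq peaks were deposited as 1 list per library. The submitters' processing notes name BWA, MACS2 2.0 and the build GRCh38 (hg38). The sources used here state no settings, handling of the transposase offset or duplicates, or read depth. Every peak carries a deposited score from the authors, with a minimum of 1.30 or 1.31 in each list and an unstated scale. It was used only to rank peaks within a list. Annotation, distance to the TSS and nearest gene were the authors', per the file headers, and a region took those of its best-ranked peak.

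Overlapping peaks were merged with at least 1 shared base, using SciPy 1.17.1, NumPy 2.4.6 and pandas 2.3.3 under Python 3.11.15 (figures: matplotlib 3.10.9). The merging was tested on simulated lists. Width is the mean over the 2 peaks of a member, and rank the mean percentile. Odds ratios have Woolf 95% intervals. Gene bodies came from the RefSeq table of GRCh38.p14, which held all 393 list genes. Of nearest genes, those of 65.9% of the rapamycin set and 66.6% of the DMSO set matched it. The members, gene lists, motifs and rules were chosen with earlier results of these data known. Named members were, per set, the 10 best-ranked, the 10 best within 1 kb of a TSS, the 3 widest, those of genes nearest to most members, list genes that the authors name as nearest gene of a member within 1 kb of the TSS, and those closest to the overlap rule. Because 30 genes of the rapamycin set and 41 of the DMSO set tied at 2 members, only genes with 3 were named. Some list genes with a member within 50 kb were also named. A few items that these rules name are not reported here. No test across regions was run. Each alternative set of peaks, overlap, promoter width and gene window is given in the closing section.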

Additional observations from a re-analysis of the deposited data

How the results depend on the processing

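Of 84 alternatives planned, 55 left a value within its 95% interval, or a count within 1.5 times, and 29 moved it. With the stronger 50% of each list, weaker peaks counted as absent, so the regions were mostly others than the members. Only 10 members of the rapamycin set and 33 of the DMSO set had both peaks in the stronger 50%. By that rule 332 regions lay in both rapamycin lists only and 465 in both DMSO lists only. Their promoter shares were 17.2% and 16.99%, median widths 680.8 and 696 bp and median ranks 42.6% and 42.4%. Introns held 41.6% of the 332 regions, and intergenic sequence 32.0% of the 465. The odds ratio of concordance was then 1.38. Without members where a list skips numbers, the rapamycin set held 621 regions, with 52.3% in introns, 34.3% intergenic, a median width of 468 bp and a median rank of 82.4%. The DMSO set then had 35.85% intergenic. With equal numbers of top-scored peaks, the remaining peaks also counted as absent. The rapamycin set then had a median width of 501 bp and rank of 77.2%, and the DMSO set 497.5 bp and 73.7%. With at least 50% overlap, the DMSO set had a median rank of 78.2%. Promoter shares were 4.60% in the rapamycin set and 5.06% in the DMSO set within 500 bp of a TSS, 9.48% and 12.1% within 2000 bp, and 6.22% in the DMSO set by the authors' annotation. Gene list shares were 1.10% in the rapamycin set and 2.89% in the DMSO set within 10 kb, and 0.368% and 1.45% by nearest gene. The cause of these shifts was not tested, apart from fewer peaks or other windows by construction.

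Alternatives for the distance to the TSS and the odds ratio were chosen after seeing the data. Without regions where a list skips numbers, the median distance was 15048 bp in the rapamycin set, 16078 bp in both shControl lists and 15774 bp in shControl DMSO with shARID1A rapamycin. No paired analysis was possible because each group held 1 library. Without replicates, read depth or a stated score scale, absence from a list cannot be told apart from a peak just under the calling threshold, and the members are mostly weak peaks.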
